A study of Rattus norvegicus with 2 samples.

Results

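The genes of epidermal growth factor (EGF) receptor signaling were examined in rat cervical lymph nodes as 10 genes: the ligand genes Hbegf, Areg, Ereg, Tgfa and Btc, the receptor genes Egfr, Erbb2 and Erbb3, and the receptor inhibitor genes Errfi1 and Lrig1. They were taken by name, as every probe other than a control whose gene name on the arrays was one of the 10. This gave 15 of 45598 probes and 10 of 36174 named genes. The set was selected on the differences between these same arrays, seen before the genes were listed, so their values are a description. Male Sprague-Dawley rats, 10 to 12 weeks old, made up the groups compared: an unstressed control group (C) and a group under restraint stress, held supine on a board by leg fasteners. The labels give no restraint time, and the stressed array was taken as RS30, the shortest of the restraint groups, because the microarray results of the study compare that group with C. The methods describe halothane anesthesia and an overdose of pentobarbital before the nodes were removed, and do not say whether an array holds the RNA of 1 rat or of several.

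Each group was measured on 1 array, so no difference had a replicate check and no test was run. Each array was read in 1 color, and the intensity of a spot measures the Cy3-labeled RNA bound to its probe. Intensities were set on a log2 scale relative to the 75th percentile of their array, an intensity of 189 for C and 176 for RS30. Well above background means that the scanner software marked the probe so, which held for 54.7% of the probes in C and 54.9% in RS30, and for 2 and 3 of the 308 negative control spots. Each of the 15 probes was printed in 1 spot. The spot error given with a difference is that of the scanner software and does not include differences between rats. For probes printed in many spots, the SD between repeat spots on the C array was taken on the log2 scale. The median SD was 0.38 at intensities under 8, 0.22 between 8 and 32, 0.10 between 32 and 128, and 0.05 at 512 or more. The lymphocyte markers Cd3e, Cd3g, Cd5, Ms4a1, Cd79b, Cd22 and Ccr7 were well above background on both arrays.

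EGF receptor ligands are made as membrane proteins and released by proteases, and they bind EGFR, some of them also its relative ERBB4. The activated receptors signal through the RAS-MAPK and PI3K cascades. Errfi1 encodes a cytoplasmic protein, also called MIG6, that binds the kinase domain of EGFR and ERBB2 and blocks it, and its gene is switched on by growth factors, stress signals and glucocorticoids. Lrig1 encodes a membrane protein that promotes the degradation of ERBB receptors. In epithelium these genes control growth and repair, and in immune tissue Areg and Hbegf are known as products of lymphoid and myeloid cells.

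The probes of the 3 genes that were higher, or were well above background only, on the RS30 array are shown by their first 30 of 60 bases, so that the 2 Errfi1 measurements can be seen to rest on separate stretches of the transcript.
Errfi1, brighter probe: agggacaccgctgccatgtcccaacaagct
Errfi1, dimmer probe: aagtattttagggaagcagaagaagcaaac
Hbegf: atttattgtctgtctacatttcagaagatg
Areg: aagtgacgaatcggtccttctttcagcgaa
All 4 probes held 45% G and C. The 15 probes ranged from 30% to 55%, and 0 of them held a run of 6 or more bases alternating between A and G, a run found in 45.2% of the genes that were 2-fold or more lower on the RS30 array and in 4.8% of all screened genes. Probe positions below are in build rn4, which the scanner files name in their header.

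The promoters of the same 3 genes are printed because Errfi1 and Hbegf were higher on the RS30 array and Areg was, marginally, well above background there only. They are the 250 bases before the gene start in RefSeq, build GRCr8, and capitals mark TGACG on either strand, the core of the site bound by CREB, which includes the full palindrome TGACGTCA.
Errfi1, chr5:166606591-166606840, forward strand: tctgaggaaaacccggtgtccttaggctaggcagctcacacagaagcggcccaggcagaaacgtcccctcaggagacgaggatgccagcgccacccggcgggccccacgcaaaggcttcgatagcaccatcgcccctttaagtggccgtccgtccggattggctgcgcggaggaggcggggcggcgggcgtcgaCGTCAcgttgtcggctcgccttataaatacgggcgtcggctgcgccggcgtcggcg
Areg, chr14:17265642-17265891, reverse strand: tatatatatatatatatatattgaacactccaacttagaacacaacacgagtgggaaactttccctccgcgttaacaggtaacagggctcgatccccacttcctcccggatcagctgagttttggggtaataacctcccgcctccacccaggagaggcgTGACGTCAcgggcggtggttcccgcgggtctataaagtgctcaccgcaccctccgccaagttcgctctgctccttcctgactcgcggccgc
Hbegf, chr18:28390221-28390470, reverse strand: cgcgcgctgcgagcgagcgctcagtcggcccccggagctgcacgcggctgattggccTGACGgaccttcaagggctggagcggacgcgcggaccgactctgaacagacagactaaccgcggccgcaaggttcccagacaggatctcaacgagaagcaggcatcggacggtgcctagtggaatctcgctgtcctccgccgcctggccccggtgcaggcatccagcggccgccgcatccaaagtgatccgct
The letters TGACG were found in these 3 of the 8 genes with a promoter in the table, and in 18.2% of all 33469 promoters. The match nearest to the gene start lay 51 bases before it in Errfi1, 83 bases in Areg and 188 bases in Hbegf. The full TGACGTCA was found in Areg alone among the 8, and in 1.59% of all promoters. TGANTCA (6.34% of all promoters), the palindromic glucocorticoid response element (0.012%), the CArG box (1.5%) and GCGTGGGCG (0.478%), each searched on both strands, were found in 0 of the 8. Such matches describe the letters of the window and are not evidence of binding. TGACG was added to the search after the differences were known.

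Of the 10 genes, 7 stood clear of background in C, in RS30 or in both. Errfi1 and Hbegf were 2-fold or more higher on the RS30 array, Areg was well above background there only, and Egfr, Erbb2, Tgfa and Lrig1 differed by less than their spot error at the brightest probe of each, with a second Tgfa probe beyond it. In all, 2 of the 7 were 2-fold or more higher and 0 were 2-fold or more lower, where 3.46% of the 21096 screened genes were higher and 4.28% were lower by that much. Because the genes were picked with this contrast known, nothing is read from that count. Their median log2 difference was 0.05, and that of all screened genes was 0.02.

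**Figure D1:**
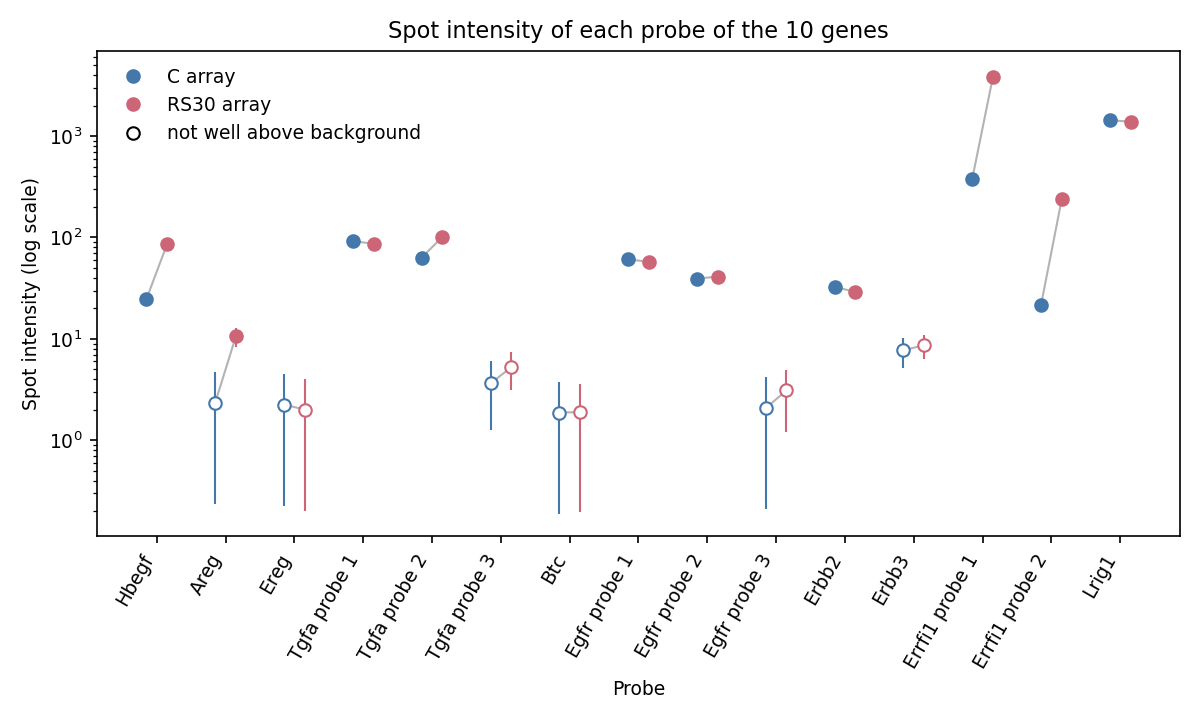
Spot intensity (log scale) of each of the 15 probes on the C array (blue) and the RS30 array (red), with open symbols where the probe was not well above background and bars for the scanner's error, which are cut short where they would reach 0. Both Errfi1 probes and the Hbegf probe were brighter on the RS30 array, and the probes of Ereg, Btc and Erbb3 were open on both arrays.

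Among the inhibitors, Errfi1 had the largest difference of the 10 genes. Its brighter probe (A_43_P14882, chromosome 5, 168025720 to 168025779) read 379 in C and 3821 in RS30 as spot intensity. After normalization Errfi1 was 10.8-fold higher in RS30, or 3.43 on the log2 scale (spot error 0.20). The dimmer probe (A_44_P1156642, 168024463 to 168024522) went from 21.8 to 238, which is 3.55 on the log2 scale (spot error 0.25) and 11.7-fold. These probes start at bases 2738 and 1481 of their transcript and were well above background on both arrays. Their differences lay 0.12 log2 units apart, less than the combined spot error of 0.32. Errfi1 ranked 20 among the increases of the 19214 genes measured on both arrays.

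Lrig1, the other inhibitor, was level between the arrays. Its probe (chromosome 4, 128918530 to 128918589) read 1435 in C and 1384 in RS30. The normalized log2 difference of 0.05 (spot error 0.20) turned to -0.05 without normalization and -0.04 with the 75th percentile taken over spots. Both inhibitors were thus measured well above background in the unstressed node, and a difference beyond spot error was seen for Errfi1 and not for Lrig1.

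**Figure D2:**
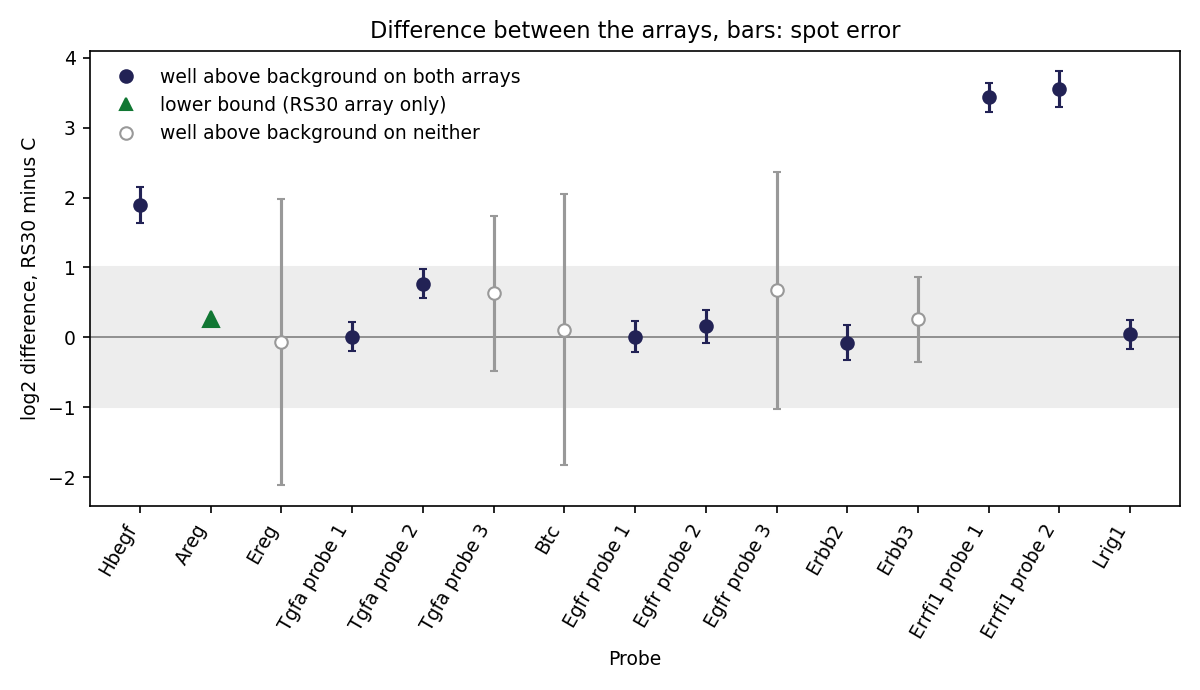
Log2 difference, RS30 minus C, for each probe, with bars for the spot error and gray shading for differences under 2-fold. The 2 Errfi1 probes lie at 3.43 and 3.55 and Hbegf at 1.89, the triangle for Areg is a lower bound of 0.27, and the bars of the open symbols, well above background on neither array, cross 0.

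Of the 5 ligand genes, Hbegf had the largest measured difference. It encodes heparin-binding EGF-like growth factor, which binds EGFR and ERBB4 and whose membrane form is released by ADAM proteases. The probe (chromosome 18, 29143627 to 29143686) read 24.7 in C and 85.8 in RS30, each clear of background. Hbegf was 3.72-fold higher in RS30, or 1.89 on the log2 scale (spot error 0.26), and ranked 126 among the increases. The log2 difference was 0.81, under 2-fold, with limma's normexp background correction and its added offset.

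Areg, which encodes amphiregulin, a ligand of EGFR alone, was the only member seen above background on 1 array. Its probe (chromosome 14, 18466438 to 18466497) read 2.35 in C, with an error of 2.33, and 10.6 in RS30, with an error of 2.32. The C signal was of the size of its own error, so the difference is a lower bound, taken against 9.45, the lowest intensity among probes well above background on the C array. By this bound, which takes the RS30 reading as exact, Areg was at least 1.20-fold higher in RS30, or 0.27 on the log2 scale. The step from 9.45 to 10.6 is smaller than the RS30 error of 2.32, so the bound lies within that error of no difference. The mark itself was marginal, since the erythrocyte marker Slc4a1 also read 10.6 in RS30 and was not marked well above background. The plain log2 difference was 2.27 (spot error 1.46). Of all screened genes, 4.61% were well above background on the RS30 array only, as Areg was.

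Tgfa, which encodes transforming growth factor alpha, was read by 3 probes that did not give the same value. The brightest (chromosome 4, 120432206 to 120432265) went from 92.1 to 86.7, and its normalized log2 difference was 0.01 (spot error 0.21). The next (120437505 to 120437564) went from 63.4 to 101 and was 1.71-fold higher in RS30, or 0.77 on the log2 scale (spot error 0.21). These 2 probes start at bases 443 and 3952 of the transcript, and their differences lay 0.76 log2 units apart, beyond the combined spot error of 0.30. The third probe (120435764 to 120435823) read 3.64 and 5.25, at background in both groups. Taken as the mean over all 3 probes, the one at background included, Tgfa had a log2 difference of 0.47, still under 2-fold.

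Ereg, which encodes epiregulin, and Btc, which encodes betacellulin, were at background. The Ereg probe (18521343 to 18522341) had values of 2.25 in C and 2.01 in RS30, and the Btc probe (18233596 to 18233655) had 1.88 and 1.90. For Ereg on both arrays and Btc on the C array, the value is a surrogate that the scanner software used in place of the signal of the spot. These values were close to the 95th percentile of the negative control spots, 2.40 in C and 2.18 in RS30. No difference is given for them, since neither probe was well above background. In the files' coordinates the probes of Btc, Areg, Ereg and Epgn, which encodes a further EGF-like ligand, lay within 341 kb of chromosome 14. The brighter Epgn probe was well above background on both arrays, with intensities of 40.6 and 41.8 and a log2 difference of 0.14 (spot error 0.23). The second Epgn probe read 2.29 and 2.55, at background in both groups. Of these 4 neighbors, Areg alone was well above background on the RS30 array only.

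The receptor genes differed by less than their spot error or were at background. Egfr encodes the receptor of all 5 ligands, and its brightest probe (chromosome 14, 97788051 to 97788110) read 61.0 in C and 57.5 in RS30. After normalization this was a log2 difference of 0.01 (spot error 0.22). A second Egfr probe (97793466 to 97793525) went from 39.4 to 41.1, or 0.16 on the log2 scale (spot error 0.23). The third (97760372 to 97760431), designed to a predicted transcript of its own, had 2.08, a surrogate value, and 3.10 and was not well above background. Erbb2 encodes the partner receptor that has no ligand of its own, and its probe (chromosome 10, 87242482 to 87242541) went from 32.7 to 29.0. Its log2 difference was -0.07 (spot error 0.25). Erbb3, which binds neuregulins and has little kinase activity, stayed at background, reading 7.74 and 8.66 (chromosome 7, 1858095 to 1858154). The signs of the Egfr and Tgfa differences changed under 3 other scalings of the arrays and that of Erbb2 with normexp, and none of them reached 2-fold under any of the settings tried.

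**Figure D3:**
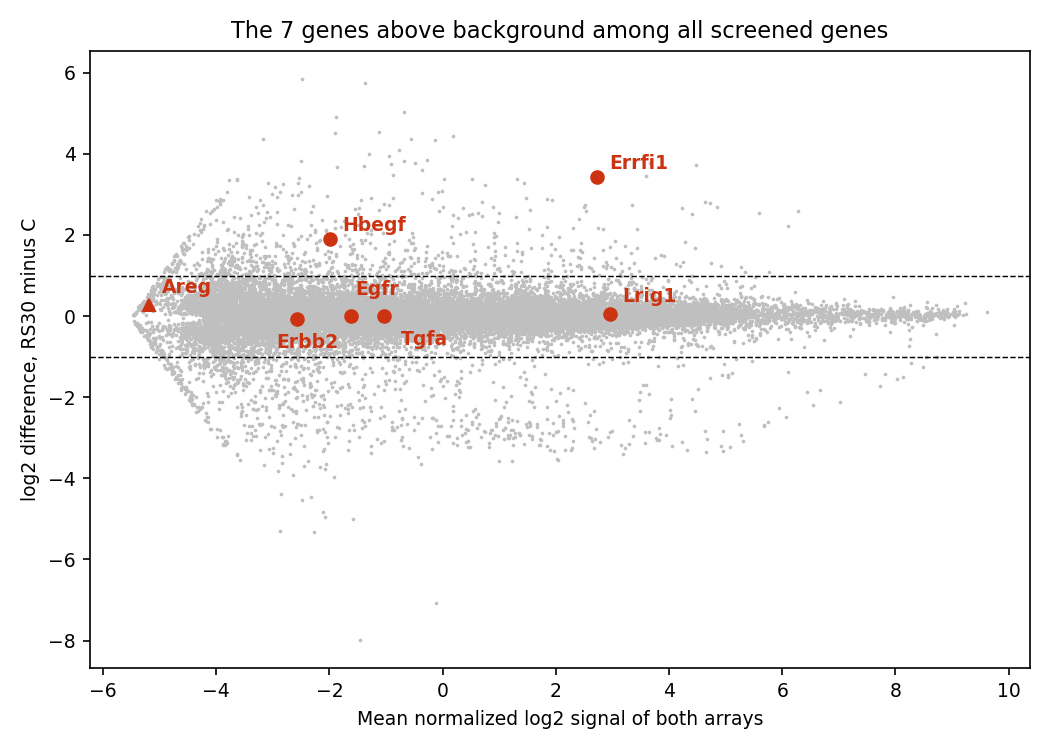
Log2 difference, RS30 minus C, against the mean normalized log2 signal of both arrays for all screened genes (gray) and the 7 genes above background (red), with dashed lines at 2-fold and a triangle for a lower bound. Errfi1 lies at 3.43 and Hbegf at 1.89, while Egfr, Erbb2, Tgfa and Lrig1, each by its brightest probe, lie near 0.

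The genes next to Errfi1 in the order of log2 differences were named by their distance from it, over 2 arrays. They were taken among 11880 genes measured on both, leaving out names that are database identifiers in place of gene symbols. Errfi1 ranked 19 in this shorter list. Directly above it were Ptgs2 (3.67), which encodes a prostaglandin synthase, Has1 (3.48), which encodes a hyaluronan synthase, and Crem (3.46), a regulator of genes driven by cyclic AMP. Directly below were the cytokine gene Il6 (3.4), the stress transcription factor gene Atf3 (3.39) and Emp1 (3.38), which encodes an epithelial membrane protein. The nearest, Crem, lay 0.02 log2 units from Errfi1. Crem to Emp1 thus lay closer to Errfi1 than its spot error of 0.20, as did Has1, and Ptgs2 lay 0.23 away. The places of Il6 and Ptgs2 rest on low C intensities, 9.99 (spot error of the difference 0.35) and 14.6 (0.21). The lowest intensity marked well above background on the C array was 9.45.

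A further 65 genes of the pathway were listed in 7 roles, and 63 of them were on the arrays. Of the 59 that cleared background in either group, 2 were 2-fold or more higher, Nrg1 and Dusp5, and 1 was 2-fold or more lower, Map2k1. These shares stand beside the 3.46% and 4.28% of all screened genes. Their median log2 difference was 0.14, with 38 of 59 above 0, where the median of all screened genes was 0.02 and 52.1% of them were above 0.

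Among the other ligands, Nrg1, which encodes a neuregulin that binds ERBB3 and ERBB4, had a brightest probe that read 8.18 in C, which was at background, and 31.0 in RS30, at least 3.51-fold more. The 5 probes of Nrg1 did not run one way. A probe to another of its transcripts stood clear of background in C only, with 20.9 there and 2.29 in RS30. Egf had the lowest value of this role, with 24.4 and 20.6 and a log2 difference of -0.14 (spot error 0.26) by its brighter probe. Its second probe stood clear of background in C only, reading 13.0 there and 1.86 in RS30, a log2 difference of -0.51 as a bound. The plain log2 difference of that probe was -2.70 (spot error 1.47). The mean over both probes uses this plain value, with RS30 at background, and by that mean Egf was 2-fold or more lower. Erbb4 was at background in both groups, and Lrig2, a relative of Lrig1, went from 479 to 360, a log2 difference of -0.31. Nrg3 and Lrig3 were not analysed here.

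Of the 8 genes of ligand shedding, 0 were past 2-fold. The highest was Adam9, a membrane protease, from 21.6 to 38.1 with a log2 difference of 0.92, and the lowest was Rhbdf2, which encodes a partner of ADAM17, at -0.26. Adam17, the main sheddase of Hbegf, Areg and Tgfa, went from 99.9 to 99.0, or 0.08 on the log2 scale (spot error 0.21). The median of the role was 0.32. Among the 8 screened genes of receptor ubiquitination and sorting, the values ran from -0.34 for Cbl to 0.76 for Cblb, both ubiquitin ligases. A second Cblb probe gave 0.64. The 10 adaptors and proximal enzymes ran from -0.38 for Src to 0.35 for Grb2, the adaptor that links the receptors to RAS activation, with 0 past 2-fold.

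In the RAS-MAPK and PI3K cascade, 16 of 17 genes stayed under 2-fold, and the lowest of these 16 was Mapk3, which encodes the kinase ERK1, at -0.38. Map2k1, which encodes the kinase MEK1, was 5.04-fold lower by its brighter probe, from 2722 to 505. That probe held a run of 8 bases alternating between A and G. Its second probe, with no such run, went from 734 to 738, or 0.11 on the log2 scale (spot error 0.20). With all probes that hold such a run of 6 or more left out, 0 of the pathway genes were 2-fold or more lower.

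The other feedback inhibitors stood highest among the roles, with a median log2 difference of 0.43 and 9 of 10 screened genes above 0. Dusp5, a nuclear phosphatase of ERK, read 770 in C and 2209 in RS30 and was 3.07-fold higher there, or 1.62 on the log2 scale (spot error 0.14). The others were under 2-fold. Socs5, which promotes EGFR degradation, was at 0.79, the ERK pathway inhibitor Spry2 at 0.70, the phosphatase gene Dusp6 at 0.45, and Spry1 at -0.12. Spred2 and Dusp4 were at background in both groups.

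**Figure D4:**
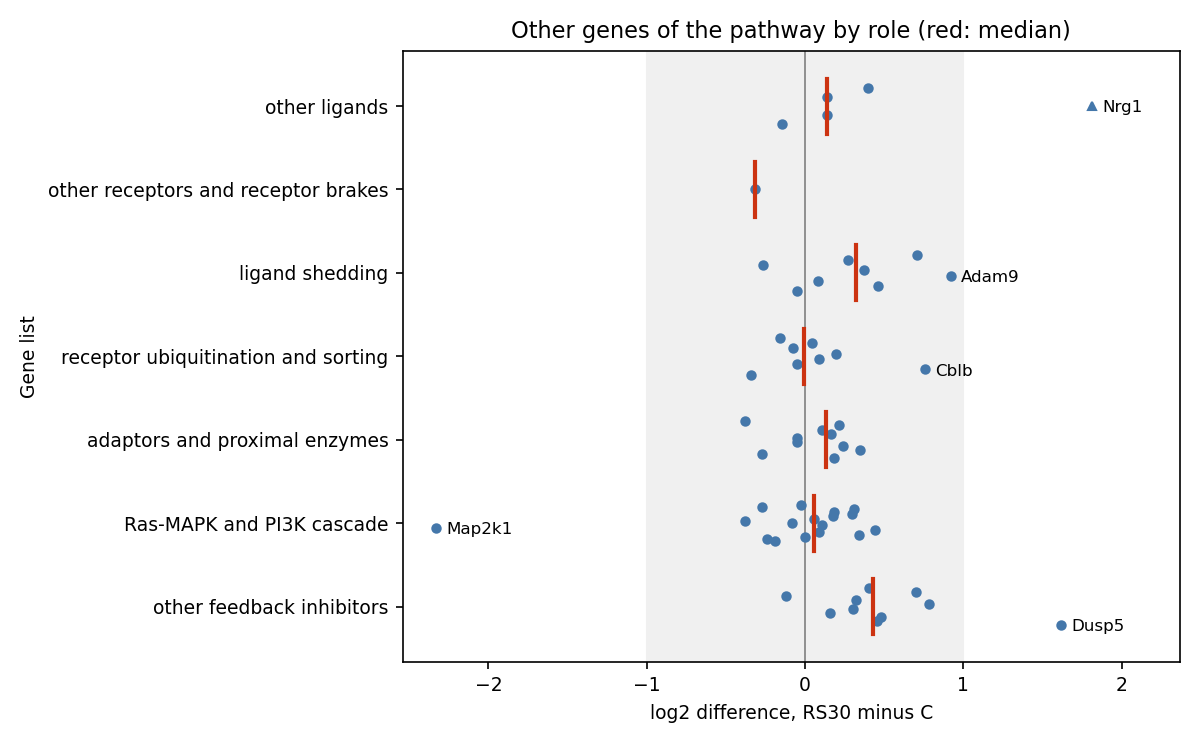
Log2 difference, RS30 minus C, of the other pathway genes by role, 1 symbol per gene well above background on at least 1 array (triangles are lower bounds), with red lines for the medians and shading for differences under 2-fold. Nrg1, Dusp5 and Map2k1 lie outside the shading, and the feedback inhibitors have the highest median, 0.43.

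The arrays hold RNA of whole nodes, in which fewer cells of a type and less RNA per cell cannot be told apart. Markers of other cell types differed between the same arrays. Of the 8 fat markers above background, 7 were 2-fold or more higher on the RS30 array (median log2 difference 2.11). The summed normalized level of a list, relative to the 75th percentile, takes all its genes on the arrays, those at background included. For fat this level went from 36.3 to 103. Of the 5 erythrocyte markers above background, 5 were 2-fold or more higher, and the summed level went from 51.7 to 310. The stroma markers ran from a log2 difference of -0.39 for Pdgfra to 1.33 for Col3a1, with 2 of 6 genes, Col1a1 and Col3a1, past 2-fold and higher. Their summed level went from 44.1 to 94.2. That of the epithelium markers went from 7.38 to 6.59, with 1 of 7 screened genes past 2-fold and lower, and Epcam, Krt5 and Aqp5 were at background in both groups. The summed level of lymphocyte markers went from 158 to 151, with 6 of 8 genes below 0 and Cd5 the lowest, at -0.97 on the log2 scale. That of macrophage markers went from 133 to 134. Of these, 4 genes were above 0 and 4 below, from -0.34 for Csf1r to 0.47 for C1qc. For endothelium, 2 of 8 genes were past 2-fold and higher, Emcn and, as a bound, Flt1. Of the 8, 5 were above 0 and 3 below, with Cdh5 the lowest at -0.41. The summed level of this list went from 27.0 to 29.4. That of mast cell markers went from 3.97 to 4.79 and that of skeletal muscle markers from 1.15 to 1.27, with 0 genes past 2-fold in either list. The part of these cells in the differences of Errfi1, Hbegf and Areg was not tested.

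**Figure D5:**
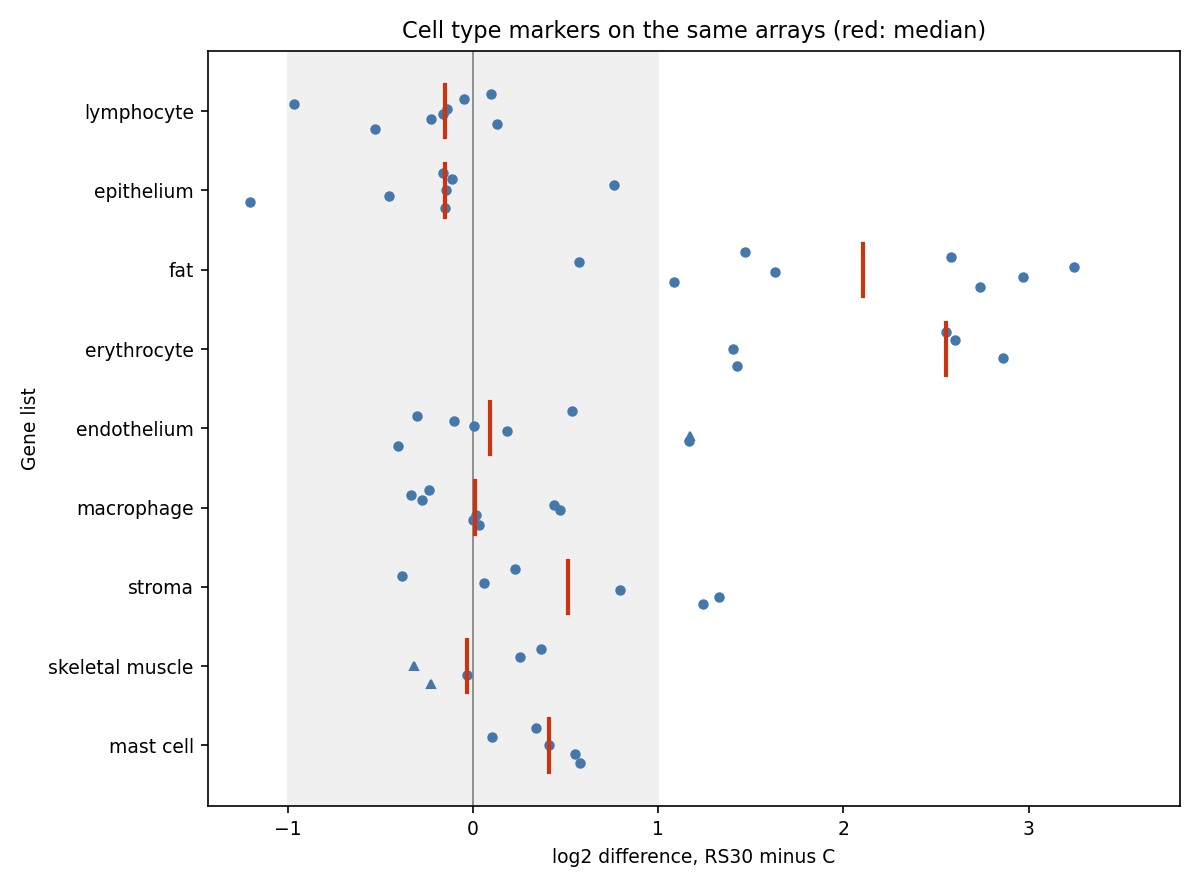
Log2 difference, RS30 minus C, of cell type markers on the same arrays, 1 symbol per gene well above background on at least 1 array (triangles are lower bounds), with red lines for the medians and shading for differences under 2-fold. The fat and erythrocyte medians are 2.11 and 2.55, and those of lymphocytes and epithelium are both -0.15.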

How the data were processed

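RNA of cervical lymph nodes was measured on 2 arrays (Agilent SurePrint G3 Rat GE, 1 color), 1 per group. The authors deposited spot intensity values extracted with Feature Extraction 11.5.1.1, background subtracted and detrended within each array and not normalized between arrays. A further deposited file holds log2 values of unstated scale, and 100% of them lay within 0.1 of the scanner values after a 75th percentile shift, so the file served as an alternative.

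Control spots and spots with outlier flags were left out, log2 intensities were averaged per probe, and the 75th percentile was subtracted, with a 2-fold threshold, as in the methods of the study. The brightest probe by mean signal represented a gene. Screened genes are those whose brightest probe was marked well above background in C, in RS30 or in both. Where 1 group alone was so marked, the other was set to the lowest intensity so marked on its array, or to its own signal if higher, and the difference is a bound. The arrays shared 1 slide and 1 scan. The number of arrays limits the precision. The members and gene lists were chosen with earlier results of these data known. All members and all their probes, the pathway genes past 2-fold or at either end of a role, and the 3 genes on each side of Errfi1 are named, except for genes that are not reported here. RefSeq accessions matched for 12 of the 15 probes, and promoters for 8 of 10 genes. Normexp used limma 3.58.1 in R 4.3.3, and other steps used Python 3.11.15, numpy 2.4.6, pandas 2.3.3 and matplotlib 3.10.9, and were tested on simulated data. Of the alternatives, 12 were planned and 1, leaving out probes in which A and G alternate, was added after seeing the data.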

Additional observations from a re-analysis of the deposited data

How the results depend on the processing

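No paired analysis was possible because C and RS30 have 1 array each, and no replicate could be left out. Errfi1 stayed past 2-fold and higher on the RS30 array in all 13 settings tried, between 3.18 with normexp, the setting that moved it beyond its spot error, and 3.49 on the log2 scale. Of the 10 genes, 2 were 2-fold or more higher except with normexp (1, Errfi1) and with plain differences or no background filter (3, with Areg at 2.27), and 0 were 2-fold or more lower in each setting. The number of other pathway genes 2-fold or more higher was 1 in place of 2 (Dusp5 without Nrg1) with normexp, with the mean over probes, and with genes above background on both arrays only. The number lower was 1 except with the mean over probes (2, Egf and Map2k1) and with alternating probes left out (0), the latter by the loss of the brighter Map2k1 probe. The median of the pathway genes lay between 0.04 and 0.16. Over all screened genes, the counts of 730 higher and 903 lower were 234 and 378 with normexp, 2031 and 2148 without a background filter, 493 and 601 with genes above background on both arrays only, and 716 and 498 with alternating probes left out. By its construction, the offset of normexp lowers differences at low signal. For Ereg, Btc and Erbb3, the signal did not stand clear of background, so a difference was not detectable.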
